A study of Mus musculus with 32 samples.

Results

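The change in log2 IP/input between hepatectomised and sham-operated livers of Mettl14 KO mice was described gene by gene. IP stands for libraries of RNA fragments pulled down with an antibody against N6-methyladenosine (m6A), and input for ordinary mRNA libraries of the same livers. The hepatectomised KO group held 4 animals aged 72 to 73 days, and the sham KO group also held 4 animals aged 72 to 73 days. All 8 animals carried the genotype labelled Mettl14 KO. The labels used here name no driver of the knockout, no strain, no extent of the resection and no time after surgery. Animals of the genotype labelled Flox control, 4 hepatectomised (72 to 73 days) and 4 sham-operated (71 to 77 days), shared the design and were used as a comparison, which made 32 libraries of 16 animals in all. Genes were kept where the mean input level was at least 50 CPM (counts scaled to a library total of 1000000) in both KO groups. This left 2153 of the 55421 genes in the table, against 14332 genes tested in the fit. Of the genes kept, 2046 had a gene symbol and 2016 were protein-coding. Just inside the limit, Mrpl51 (lower group mean 50.04 CPM) had a per-animal log2 difference of -1.26, and Trio (50.1 CPM) of 0.62. Just outside it, Emilin1 (49.99 CPM) had -2.46, and Arel1 (49.96 CPM) had 0.14.

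m6A is the most abundant internal mark of mRNA. It is written by a methyltransferase in which METTL3 holds the catalytic site and METTL14 binds RNA, it is removed by ALKBH5 and FTO, and reader proteins of the YTH family bind it and influence the splicing, translation and decay of the transcript. After part of the liver is removed, the remaining hepatocytes enter the cell cycle while they go on with metabolism and the secretion of plasma proteins. The series title names fibrinogen synthesis and liver regeneration as its subject. The ratio of IP to input is read in such a design as the share of a transcript pulled down. Here the kits differed between both kinds of library, and input was made from whole mRNA whereas IP was made from fragmented total RNA, so a ratio cannot be assigned to the antibody alone.

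IP totals were 7133988 to 19509536 counts in hepatectomised KO animals and 14887659 to 24298816 in sham KO animals. Input totals were 10566756 to 12534161 in hepatectomised KO animals and 8178017 to 11304348 in sham KO animals. The IP library of hepatectomised KO replicate 4 was the smallest and had 6676 genes with at least 10 counts, while the IP library of sham KO replicate 4 was the largest and had 16846. Over the genes kept, the correlation of log2 levels between libraries of a group was 0.54 to 0.86 in hepatectomised KO IP, 0.81 to 0.86 in sham KO IP, 0.33 to 0.45 in hepatectomised KO input and 0.29 to 0.55 in sham KO input (across genes, which are not independent replicates). The median SD of input log2 CPM within a group was 2.27 for genes under 100 CPM and 0.29 for genes over 1000 CPM, that of IP log2 CPM was 0.7 and 0.51, and that of the ratio was 2.31 and 0.57. Mettl14 had 0 counts in all 8 KO inputs, which allows up to 0.239 to 0.284 CPM in hepatectomised KO and 0.265 to 0.367 CPM in sham KO libraries (3 counts, counting error only). In IP it had 0, 60, 0 and 0 counts in hepatectomised KO animals and 0, 38, 0 and 52 in sham KO animals. The inputs of the hepatectomised and sham flox animals also held 0 counts of it, so its absence from the KO inputs is no sign of the knockout. The labelled genotype could not be checked from Mettl14.

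After hepatectomy, 5 of the 2153 genes had a lower IP/input than after sham surgery in KO livers, and 0 had a higher one (edgeR quasi-likelihood F-test over 14332 genes, adjusted p under 0.05). The background over all genes tested was 0.0349% lower and 0.0% higher. The 5 were Serpina1e, a mouse alpha-1-antitrypsin gene, Cyp8b1, the sterol hydroxylase that directs bile acid synthesis to cholic acid, Elovl3, an elongase of very long fatty acids, Cyp2e1, the ethanol-inducible cytochrome P450 of pericentral hepatocytes, and Gm8893. The last is a pseudogene in the same cluster on chromosome 12 as Serpina1e and was named after its values were seen. In all 5 the IP level differed and the input level did not pass the test. At an unadjusted p under 0.05 the count was 75 lower and 28 higher among the genes kept (3.48% and 1.3%). Of all genes tested it was 1037 lower (7.24%) and 674 higher (4.7%), so the shares among the genes kept were smaller.

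**Figure D1:**
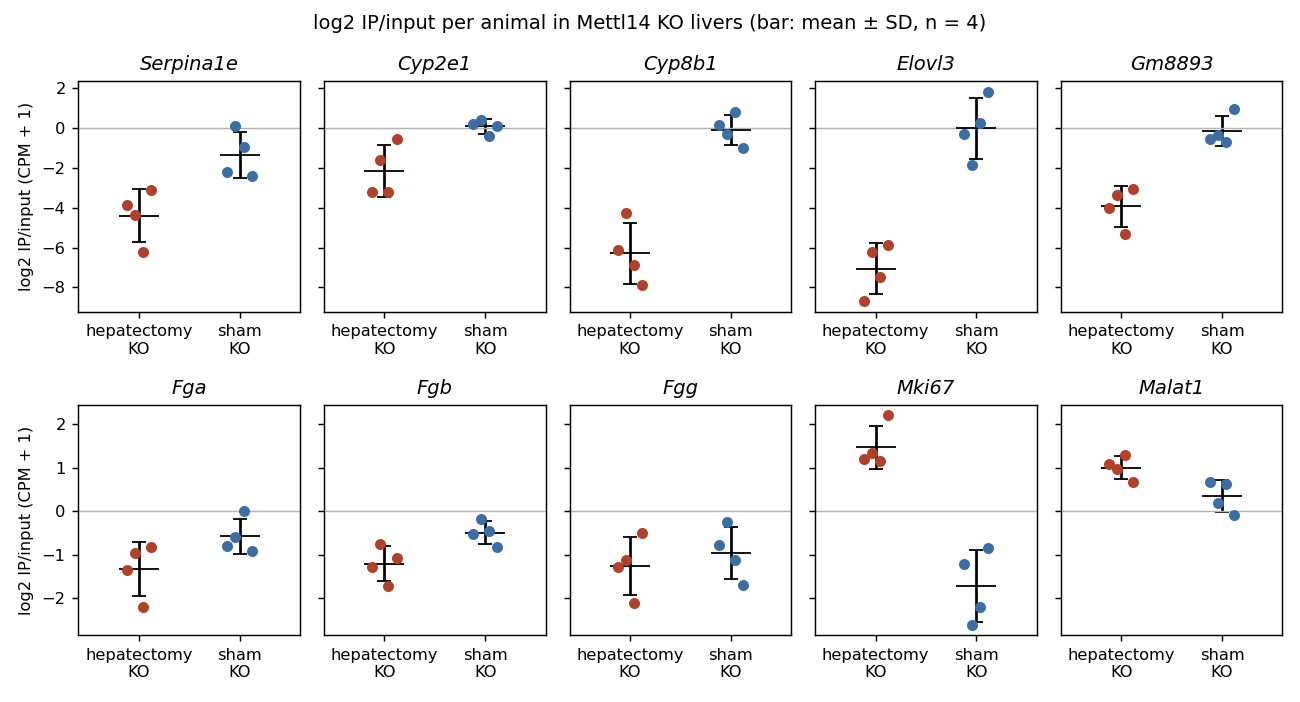
log2 IP/input of CPM + 1 for each animal (points) with the group mean and SD (n = 4), hepatectomised KO left of sham KO, for the 5 genes called lower, the 3 fibrinogen genes, Mki67 and Malat1. The groups of Serpina1e, Cyp2e1, Cyp8b1, Elovl3 and Gm8893 do not overlap, the fibrinogen groups overlap, and Mki67 lies above 0 in the 4 hepatectomised KO animals and below 0 in the 4 sham KO animals.

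Serpina1e (ENSMUSG00000072849, chromosome 12, 103946931 to 103958975, minus strand; positions are those of the table, whose genome build is unnamed in the labels) had the smallest p-value. Its IP level was 164, 140, 54.8 and 426 CPM in the hepatectomised KO animals, against 932, 4406, 2343 and 561 CPM in the sham KO animals. Its input level was 2395, 2910, 4120 and 3723 CPM in hepatectomised KO animals, against 4242, 4019, 4512 and 2975 CPM in sham KO animals. The IP groups did not overlap, and the input groups did. log2 IP/input averaged -4.39 ± 1.31 in hepatectomised KO and -1.35 ± 1.18 in sham KO animals (SD, n = 4 each, exact 2-sided permutation p = 0.029, the smallest that 4 against 4 allows). Genes were named for ratios without overlap, which fixes this p in advance, so it adds no support. The edgeR difference was -3.33 (SE 0.53, adjusted p = 0.00071). Serpina1d, its neighbour in the family, had -1.57 (SE 0.37) and did not pass (adjusted p = 0.21, edgeR), although its ratios did not overlap between the groups either, at -1.68 to -0.17 in hepatectomised KO and 0.18 to 1.03 in sham KO animals. It passed in a fit on the genes kept alone (-1.43, adjusted p = 0.048, edgeR). Serpina1e and Serpina1d are near-identical copies, so reads that fit both could be split between them. Whether reads were also shared with Gm8893 was not tested, since no sequence of it was at hand.

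Gm8893 (ENSMUSG00000090555, chromosome 12, 103817856 to 103822243, minus strand) had an IP level of 36.6, 23.3, 16.2 and 62.8 CPM after hepatectomy in KO livers, against 385, 897, 285 and 542 CPM in sham KO animals. The IP groups did not overlap. Its input level averaged 516 CPM in hepatectomised KO and 605 CPM in sham KO animals, with overlap. The edgeR difference in IP/input was -3.81 (SE 0.79, adjusted p = 0.033).

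Cyp2e1 (ENSMUSG00000025479, chromosome 7, 140763739 to 140774987, plus strand) was abundant and steady in the inputs. Its IP level was 233, 401, 201 and 993 CPM in hepatectomised KO animals, against 2404, 2322, 1663 and 2203 CPM in sham KO animals. Its input level was 2140, 1209, 1894 and 1457 CPM in hepatectomised KO animals, against 2079, 1720, 2231 and 2020 CPM in sham KO animals. The sham KO animals had ratios near equality, and the hepatectomised KO animals varied among themselves, with replicates 1 and 3 lowest and replicate 4 nearest to the sham animals. log2 IP/input averaged -2.14 ± 1.31 in hepatectomised KO and 0.09 ± 0.36 in sham KO animals (SD, n = 4 each, exact 2-sided permutation p = 0.029, fixed by the choice of genes without overlap). The edgeR difference was -2.07 (SE 0.43, adjusted p = 0.033).

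Cyp8b1 and Elovl3 were at or near 0 in the IP libraries after hepatectomy while their mRNA was present in the inputs. Cyp8b1 (ENSMUSG00000050445, a single-exon gene on chromosome 9, 121914356 to 121916305, minus strand) had 0.0582, 3.74, 0.0 and 0.0 CPM in IP of hepatectomised KO animals, against 117, 282, 419 and 140 CPM in sham KO animals. Of its 74 IP counts in the hepatectomised KO group, 73 came from replicate 2, against 17233 counts in the sham KO group. The input level was 72.2, 90.0, 115 and 236 CPM in hepatectomised KO animals, against 106, 348, 238 and 286 CPM in sham KO animals. The IP groups were far apart and the input groups overlapped. The pooled IP level was 189-fold higher in sham KO animals (95% counting interval 151 to 241, exact, covering counting error only), and the edgeR difference in IP/input was -7.2 (SE 1.35, adjusted p = 0.012). Without hepatectomised KO replicate 2, it was -12.13 (adjusted p = 1.5e-07, edgeR), a fitted value against 1 remaining count.

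Elovl3 (ENSMUSG00000038754, chromosome 19, 46131897 to 46135694, plus strand) had 3 IP counts in all 4 hepatectomised KO animals together, against 3707 in the sham KO animals. Its IP level was 65.5, 86.6, 65.2 and 5.19 CPM in the sham KO animals. The input level was 440, 73.8, 185 and 66.3 CPM in hepatectomised KO animals, against 80.1, 317, 54.3 and 0.734 CPM in sham KO animals. The input of sham KO replicate 4 thus held almost none of this mRNA, and its IP level was also the lowest of its group. The pooled IP level was 1000-fold higher in sham KO animals (95% counting interval 343 to 4870). The edgeR difference of -10.51 (SE 2.03, adjusted p = 0.013) depends on the prior count for a gene this near 0 and is no measure of size.

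With upper-quartile factors 0 of the 5 passed (adjusted p = 0.12 to 0.3, edgeR), and leaving out 1 animal gave 2 to 14 calls (3, 2, 2 and 14 when hepatectomised KO replicate 1, 2, 3 or 4 was left out, and 2, 3, 6 and 4 when sham KO replicate 1, 2, 3 or 4 was). With the animal as a block the count was 25, with 18 lower and 7 higher, and without replicate 4 of both groups, a choice made after seeing the data, it was 14, with 12 lower and 2 higher. Serpina1e and Cyp8b1 passed without any 1 of the 8 animals (adjusted p up to 0.029 and 0.049, edgeR). Elovl3 did not pass without hepatectomised KO replicate 1 (0.14), 2 (0.054) or 3 (0.089) or sham KO replicate 1 (0.079). Cyp2e1 did not pass without hepatectomised KO replicate 1 (0.15), 2 (0.054) or 3 (0.42) or sham KO replicate 1 (0.23), 2 (0.28) or 4 (0.088). Gm8893 did not pass without hepatectomised KO replicate 1 (0.1), 2 (0.054) or 3 (0.42) or sham KO replicate 1 (0.11), 2 (0.092) or 4 (0.14), all adjusted p-values of the edgeR fit. Without hepatectomised KO replicate 4 the count was 14, with 8 lower and 6 higher, and mt-Nd1 was among the genes that then passed (1.32, adjusted p = 0.00072).

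**Figure D2:**
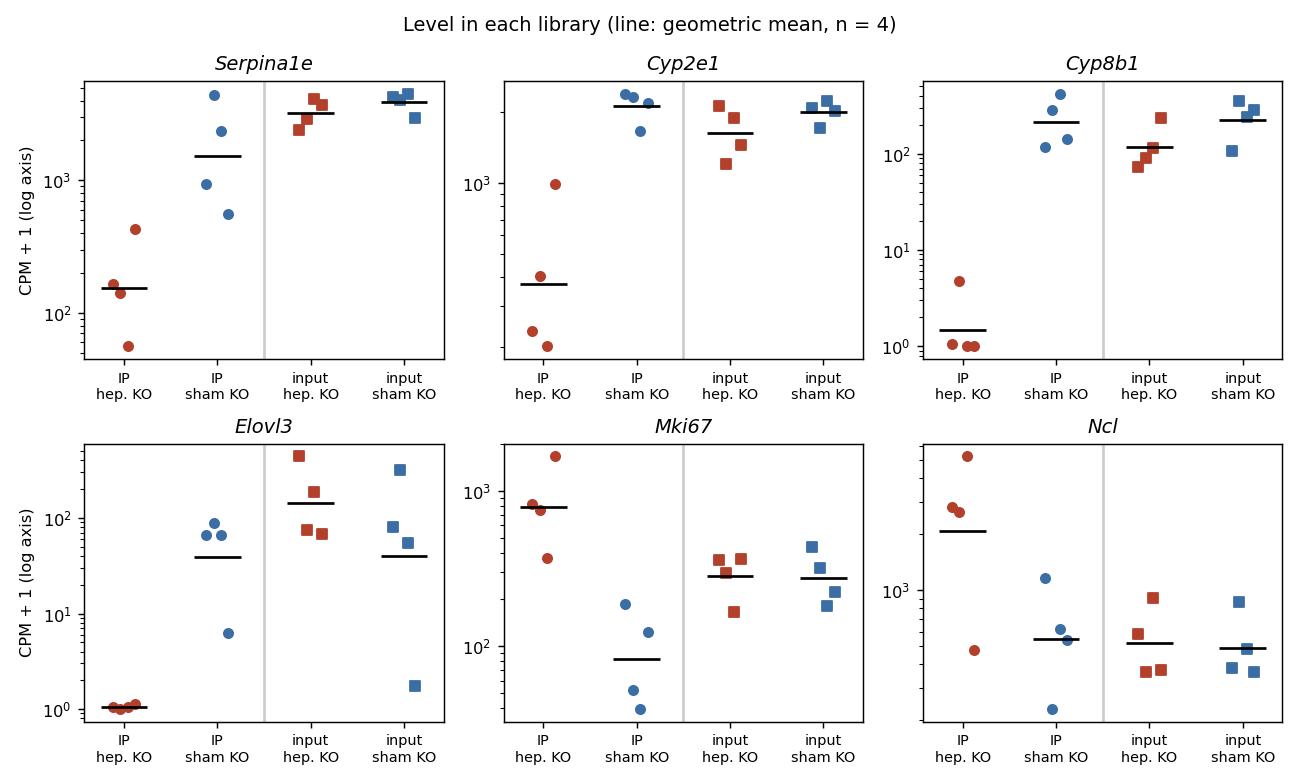
Level of 6 genes in each KO library as CPM + 1 on a log axis, with IP in the left pair (circles) and input in the right pair (squares), hepatectomised KO left of sham KO and a line at the geometric mean (n = 4). Cyp8b1 and Elovl3 lie at or near the bottom of the axis in IP of hepatectomised KO animals and overlap in input, and Mki67 lies higher in IP of hepatectomised KO animals (366 to 1665 CPM) than of sham KO animals (38.3 to 187 CPM).

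The same 5 genes were set against the flox animals to ask whether the change depended on the genotype. In flox livers Serpina1e had log2 IP/input of -0.19, -0.15, -0.34 and 0.04 after hepatectomy, against -0.32, -0.46, 0.38 and -0.36 after sham surgery. Its flox groups overlapped, with a difference of 0.03, and those of Cyp8b1 (-0.37), Elovl3 (-0.05), Cyp2e1 (-0.44) and Gm8893 (-0.25) did so too. The difference between the genotypes did not pass for any of the 5. It was -3.41 for Serpina1e (SE 0.74, adjusted p = 0.052), -6.91 for Cyp8b1 (0.064), -9.58 for Elovl3 (0.064), -1.66 for Cyp2e1 (0.13) and -3.88 for Gm8893 (0.071), with adjusted p in brackets (edgeR). Over all genes tested, 4 had a lower change in KO than in flox (0.0279%) and 1 a higher one (0.00698%), and 1 of them was a gene kept, Sdf4. With the animal as a block this count among the genes kept was 15, with 12 lower and 3 higher. In flox livers 2 of the 2153 genes had a lower and 6 a higher IP/input after hepatectomy, against 0.0488% and 0.133% of all genes tested. At an unadjusted p under 0.05 the flox count was 20 lower and 60 higher (0.929% and 2.79% of the genes kept), against 8.18% and 12.3% of all genes tested. The flox ratios did not overlap in 39 genes kept that were lower and 50 that were higher (1.81% and 2.32%), against 1.05% and 1.71% of all genes tested. For the genotype difference the unadjusted count was 71 lower and 20 higher (3.3% and 0.929% of the genes kept), against 9.21% and 5.18% of all genes tested.

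Both sides of the ratio were then examined. In the IP libraries 36 genes fell and 6 rose after hepatectomy in KO livers (edgeR, adjusted p under 0.05), which is 0.251% and 0.0419% of the genes tested, and all 42 belonged to the genes kept. At an unadjusted p under 0.05, 175 of the genes kept were lower in IP and 35 higher (8.13% and 1.63% of the genes kept), against 554 and 68 of all genes tested (3.87% and 0.474%). The IP levels did not overlap in 206 genes kept that were lower and 88 that were higher (9.57% and 4.09%), against 4.26% and 2.08% of all genes tested. In the input libraries 0 genes passed in either direction (0.0% each). At an unadjusted p under 0.05, 13 were lower and 8 higher among the genes kept (0.604% and 0.372%), against 1058 lower (7.38%) and 1282 higher (8.95%) of all genes tested. The input levels did not overlap in 22 genes kept that were lower and 29 that were higher (1.02% and 1.35%), against 0.537% and 1.07% of all genes tested. With upper-quartile factors 198 genes kept had an unadjusted p under 0.05 in the inputs (edgeR). The lack of calls therefore does not show that input levels were unchanged. DESeq2 called 2 of the genes kept in the inputs and 2341 of all. The IP count was 27 without hepatectomised KO replicate 3 or sham KO replicate 2 and 74 without hepatectomised KO replicate 4, and with RLE factors it was 23 lower and 21 higher. Among the 36 were genes that encode secreted plasma proteins or enzymes of hepatocytes. Scd1, a stearoyl-CoA desaturase, had 905 CPM in IP of hepatectomised KO and 7010 CPM of sham KO animals (log2 change -3.04, SE 0.4, adjusted p = 2.3e-06). Its input averaged 1030 CPM in hepatectomised KO and 3080 CPM in sham KO animals, and its IP/input difference of -1.42 did not pass (adjusted p = 0.32, edgeR) except with the animal as a block (-1.8, adjusted p = 0.00031). Pck1, the rate-limiting enzyme of gluconeogenesis, fell in IP by 1.72 on the log2 scale, Apoe, the ligand for uptake of lipoprotein remnants, by 0.95, and Ttr, the carrier of thyroid hormone and retinol-binding protein, by 1.16. The 6 that rose in IP were Mki67, Ncl, Hsp90aa1, Malat1, mt-Nd1 and ENSMUSG00000098178, which has no name in the table used.

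**Figure D3:**
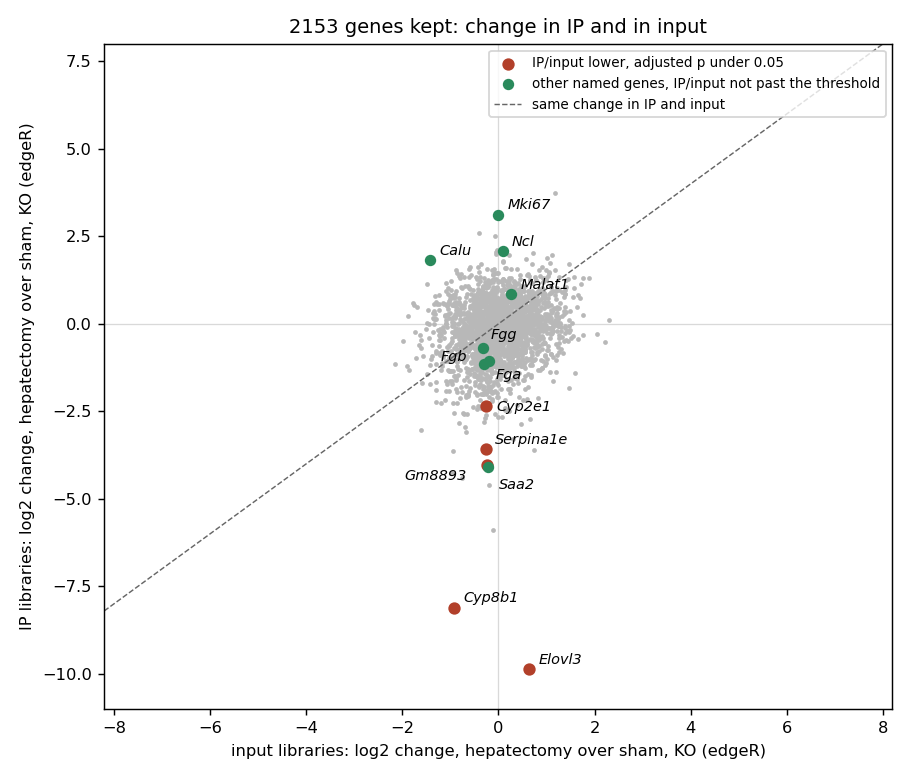
edgeR log2 change after hepatectomy in KO livers for the 2153 genes kept, in IP (vertical axis) against input (horizontal axis), with the line of equal change dashed. The 5 genes with a lower IP/input (red) lie below the line at an input change between -0.92 and 0.64, and Mki67 lies above it at an input change near 0.

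The median log2 IP/input over the 2153 genes was -0.19, -0.09, -0.29 and -0.09 in the hepatectomised KO animals, against -0.05, 0.03, -0.05 and -0.04 in the sham KO animals. The groups did not overlap, and the difference was -0.14 (exact 2-sided permutation p = 0.029). Scaled by TMM factors it was -0.2 (exact permutation p = 0.2), and with an input minimum of 10 CPM it was -0.28 (p = 0.11, exact permutation). In flox animals it was 0.02 (exact permutation p = 0.74). The median of the edgeR differences over the genes kept depended on the scaling, at -0.21 with TMM, 0.06 with RLE, -0.14 with library totals alone and 0.4 with upper-quartile factors. Values of gene lists are therefore also given relative to that median. On the per-animal scale the median of the differences was -0.37, with 1326 genes below 0 and 827 above.

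The ratios did not overlap between the groups for 66 genes lower (3.07% of the genes kept) and 29 genes higher (1.35%) after hepatectomy in KO livers, against 2.85% and 0.733% of all genes tested. The share lower was thus close to that of all genes tested. Lack of overlap equals an exact 2-sided permutation p of 0.029, which some genes reach by chance. The values below describe these genes and are no result about them as a set. For 54 of the 66 genes the IP change was larger than the input change, and for 18 of the 29, against 1235 of all 2153 genes kept. The median IP change of the 66 was -1.52 with an input change of 0.17, and that of the 29 was 0.85 with -0.51. The share without overlap was highest among the abundant genes, with 13 lower of 112 genes over 1000 CPM and 9 lower of 783 genes under 100 CPM.

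Slc27a2, an acyl-CoA synthetase of very long fatty acids, had log2 IP/input of -1.76, -0.79, -2.75 and -1.31 in hepatectomised KO animals, against -0.15, 0.36, -0.13 and -0.07 in sham KO animals (edgeR difference -1.67, adjusted p = 0.32). The groups did not overlap, and the difference did not pass the test. Aqp9, the glycerol channel of hepatocytes, had levels without overlap on both sides of the ratio, with 114 to 185 CPM in IP of hepatectomised KO and 276 to 414 CPM of sham KO animals. Its input was 469 to 655 CPM in hepatectomised KO and 182 to 324 CPM in sham KO animals. The edgeR difference in IP/input was -2.16 (SE 0.75, adjusted p = 0.32). It passed with DESeq2 (-1.9, adjusted p = 0.0098) and in a fit on the genes kept alone (-2.04, adjusted p = 0.048, edgeR).

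On the higher side Mki67, which encodes the Ki-67 protein of cycling cells and is a long transcript with 10061 bases of exon, had the smallest p-value among the genes without overlap. Its IP level was 821, 747, 366 and 1665 CPM in hepatectomised KO animals, against 187, 51.3, 38.3 and 123 CPM in sham KO animals. Its input level was 356, 294, 166 and 362 CPM in hepatectomised KO animals, against 434, 318, 180 and 222 CPM in sham KO animals. The IP level rose (log2 change 3.12, SE 0.76, adjusted p = 0.042, edgeR), and the input groups overlapped with a change of -0.0. The ratio averaged 1.47 ± 0.49 in hepatectomised KO and -1.72 ± 0.83 in sham KO animals (SD, n = 4 each, exact 2-sided permutation p = 0.029, fixed by the choice of genes without overlap). The edgeR difference of 3.12 (SE 1.01) did not pass (adjusted p = 0.32). It passed with DESeq2 (3.33, adjusted p = 0.022) and with limma on per-animal ratios at a pseudocount of 5 (3.12, adjusted p = 0.043). In flox livers the same ratio averaged 0.63 ± 0.88 after hepatectomy and -3.51 ± 1.27 after sham surgery (SD, n = 4 each; exact 2-sided permutation p = 0.029), and the genotypes did not differ in this change beyond its error (-0.43, SE 1.39, adjusted p = 1.0, edgeR). Mki67 was the only one of 31 cell cycle and replication genes found in the table whose input reached the limit.

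Calu, a calcium-binding protein of the secretory pathway, had ratios of 1.01, 2.54, 1.4 and 2.22 in hepatectomised KO animals, against -0.48, -3.21, -1.51 and -1.35 in sham KO animals (edgeR difference 3.24, adjusted p = 0.32). With DESeq2 the difference was 3.5 and passed (adjusted p = 0.0023). Both sides contributed, with 204 to 540 CPM in IP of hepatectomised KO and 31.4 to 143 CPM of sham KO animals, and 38.3 to 115 CPM in input of hepatectomised KO and 199 to 299 CPM of sham KO animals. Malat1, a nuclear long non-coding RNA, rose in IP by a log2 change of 0.85 (adjusted p = 0.0012, edgeR). Its ratio was 1.08, 0.96, 1.29 and 0.67 in hepatectomised KO animals, against 0.66, 0.18, 0.62 and -0.1 in sham KO animals, which is without overlap but by a small margin (0.58, adjusted p = 0.32, edgeR). Lcn2, an iron-siderophore binding protein of injured liver, had -0.67, -0.36, -0.8 and -0.15 in hepatectomised KO animals, against -1.85, -1.85, -3.18 and -1.58 in sham KO animals (1.43, adjusted p = 0.36, edgeR; 1.54 with the animal as a block, adjusted p = 0.0097). The other genes of this kind were Atpif1, Canx, Ptma, Ppl, Ccar1, mt-Nd4l, Golgb1 and Fau, with edgeR differences of 0.72 to 2.39 that did not pass.

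The fibrinogen genes encode the 3 chains of the clotting protein that the liver secretes, and lie side by side on chromosome 3. Fga had log2 IP/input of -1.36, -0.97, -2.2 and -0.82 in hepatectomised KO animals, against -0.8, -0.6, -0.0 and -0.91 in sham KO animals. Fgb had -1.28, -0.75, -1.72 and -1.07 in hepatectomised KO animals, against -0.52, -0.19, -0.45 and -0.83 in sham KO animals. Fgg had -1.29, -1.12, -2.11 and -0.5 in hepatectomised KO animals, against -0.78, -0.25, -1.11 and -1.69 in sham KO animals. The groups overlapped in all 3 genes, with replicate 3 the lowest of the hepatectomised KO animals in each. The differences of the means were -0.76 for Fga, -0.7 for Fgb and -0.3 for Fgg (exact 2-sided permutation p = 0.057, 0.057 and 0.54), and none passed in edgeR (adjusted p = 0.32, 0.32 and 0.9).

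The IP level of 2 of these chains did fall. Fga averaged 16100 CPM in IP of hepatectomised KO and 30700 CPM of sham KO animals (log2 change -1.06, SE 0.2, adjusted p = 0.0015, edgeR), and Fgb averaged 4260 CPM in IP of hepatectomised KO and 8640 CPM of sham KO animals (-1.15, SE 0.19, adjusted p = 0.00021). In input Fga averaged 38800 CPM in hepatectomised KO and 44600 CPM in sham KO animals, and Fgb 9700 CPM in hepatectomised KO and 11900 CPM in sham KO animals, and neither passed (adjusted p = 0.77 for Fga and 0.48 for Fgb, edgeR). In flox livers the ratio of Fga was 0.83 higher after hepatectomy (exact 2-sided permutation p = 0.057), and those of Fgb and Fgg were each 0.4 higher (exact p = 0.17 and 0.2). Tested as KO minus flox, the change of Fga differed by -1.7 (SE 0.4) and that of Fgb by -1.33 (SE 0.38), at adjusted p-values of 0.055 and 0.073. Fgg differed by -0.88 (SE 0.51, adjusted p = 0.49, edgeR), and none of the 3 passed. With the animal as a block, which pairs the input and IP libraries of a liver, the difference in KO livers was -0.81 for Fga (adjusted p = 3.7e-30) and -0.77 for Fgb (adjusted p = 0.0011), and both passed (edgeR). Without the expression filter Fga passed too (-0.85, adjusted p = 2.8e-13, edgeR). The per-animal ratios of Fga and Fgb overlapped between the groups (exact 2-sided permutation p = 0.057 each). With 4 against 4 that test cannot go below 0.029, so it cannot decide on the p-values of these fits. The paired libraries of all 16 animals were only weakly correlated (median 0.08, across genes). In KO livers the correlation was 0.1, 0.09, 0.07 and 0.15 after hepatectomy, against 0.15, -0.1, -0.01 and 0.24 after sham surgery. Each hepatectomised KO input matched its own IP library best. Among the sham KO animals this held for replicates 1 and 4 and not for replicates 2 and 3.

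The background for each list below is that of all 2153 genes kept, of which 1326 were below 0 and 827 above (median -0.37). At an unadjusted p under 0.05, 75 of them were lower (3.48%) and 28 higher (1.3%, edgeR). In IP 36 fell (1.67%) and 6 rose (0.279%). The 6 vitamin K-dependent clotting factors kept were all below 0 on the per-animal scale (median -0.92), with 0 called, 1 at an unadjusted p under 0.05 and the list median 0.71 below that of all genes kept (edgeR, log2). F2, prothrombin, had a per-animal difference of -0.88 and F7, the factor that starts the extrinsic pathway, of -3.78, with overlap in both. Of 13 other clotting and fibrinolysis genes 12 were below 0 (median -0.84, lowest -4.1, highest 0.6), with 0 called and 4 at an unadjusted p under 0.05. Kng1, the kininogen, had -0.84 without overlap and fell in IP by 1.24 (adjusted p = 0.043, edgeR). Hrg, the histidine-rich glycoprotein, had -1.47 with overlap, and passed without hepatectomised KO replicate 4 (edgeR -1.68, adjusted p = 0.029) and with the animal as a block (-1.52, adjusted p = 0.0082).

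The acute phase list holds 18 genes kept (15 below 0, median -0.6, 0 called, 4 that fell in IP). Of all 2153 genes kept, 1326 were below 0 (median -0.37), and 36 fell in IP (1.67%). Its lowest per-animal differences were those of the serum amyloid A genes Saa2 (-4.25) and Saa1 (-3.08), followed by Lbp (-2.7) and Orm2 (-2.59), while Saa3 had 0.48. Saa2 had IP levels of 5.3, 101, 18.6 and 66.2 CPM in hepatectomised KO animals, against 304, 905, 489 and 1368 CPM in sham KO animals. Its input was 844 to 1098 CPM in hepatectomised KO and 842 to 1321 CPM in sham KO animals, almost the same range. The IP level fell (log2 change -4.1, SE 0.78, adjusted p = 0.0016), while the IP/input difference of -3.89 (SE 1.01) did not pass (adjusted p = 0.32, edgeR) except with the animal as a block (-4.39, adjusted p = 3.7e-06) and under other settings. Saa1 had -2.67 and Saa4 -1.44 in IP/input, both without overlap and with adjusted p = 0.32. Itih4, a plasma protein of the inter-alpha-trypsin inhibitor family, had -1.18 without overlap. Lists of this kind turn with the scaling, since the median of the acute phase list was -0.66 with TMM and 0.05 with upper-quartile factors, but it was 0.45 and 0.35 below the median of all genes kept. Saa1 and Saa2 are near-identical, so their reads may be split.

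**Figure D4:**
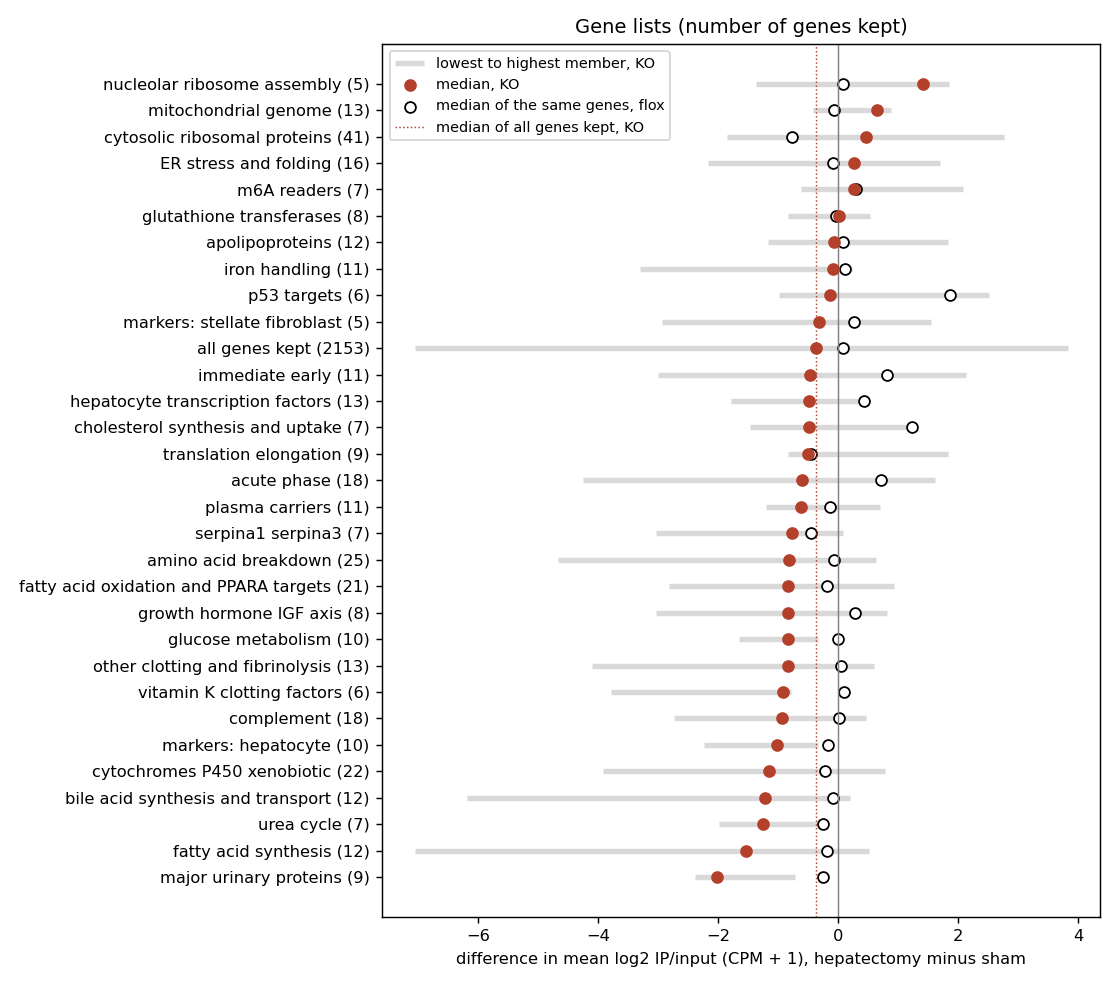
Median difference in log2 IP/input of CPM + 1, hepatectomised minus sham, for gene lists with at least 5 genes kept, in KO (red) and for the same genes in flox livers (open), with the lowest to highest member in KO as a grey bar and the median of all genes kept in KO dotted. Major urinary protein, fatty acid synthesis and urea cycle genes have the lowest medians in KO, and nucleolar and mitochondrial genes the highest. Medians carry no test.

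Secreted proteins and metabolic enzymes of hepatocytes made up the lowest lists. Complement components (18 kept, 17 below 0, median -0.93) had 0 called, and C3, the central component, fell in IP by 0.97 on the log2 scale (adjusted p = 0.01, edgeR). With the animal as a block C3 also passed in IP/input (-1.01, adjusted p = 1.2e-06, edgeR), as did Ttr (-1.16, adjusted p = 0.012), Apoe (-0.67, adjusted p = 0.00087) and Serpina3k (-0.85, adjusted p = 8.4e-08). Without the expression filter C3 (-0.97, adjusted p = 0.0058) and Serpina3k (-1.0, adjusted p = 3.4e-05) passed too (edgeR). C3 also passed without sham KO replicate 3 (-1.35, adjusted p = 0.048, edgeR), and Serpina3k without sham KO replicate 4 (-1.25, adjusted p = 0.0015, edgeR). The per-animal ratios of C3, Ttr, Apoe and Serpina3k overlapped between the groups (exact 2-sided permutation p = 0.11 for C3, 0.057 for Ttr, 0.2 for Apoe and 0.14 for Serpina3k). Plasma carriers (11 kept, 10 below 0, median -0.61) included Vtn, an adhesive plasma glycoprotein, and Ttr, which fell in IP by 1.67 and 1.16. Major urinary proteins (9 kept, all below 0, median -2.02) had 1 gene at an unadjusted p under 0.05, Mup3, which fell in IP by 2.54 (adjusted p = 0.00022, edgeR), and are near-identical copies. Of 12 apolipoproteins kept, 7 were below 0 (median -0.06), a share near that of all genes kept (1326 of 2153, median -0.37).

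Of 22 xenobiotic cytochromes P450 kept, 20 were below 0 (median -1.15), 1 was called (Cyp2e1) and 3 fell in IP (Cyp2e1, Cyp2c29 and Cyp2f2). Bile acid synthesis and transport genes (12 kept, 11 below 0, median -1.21) held 1 call, Cyp8b1. Slc27a5, which conjugates bile acids to coenzyme A, had -2.09 and Slco1b2, an uptake transporter, had -1.47, neither past the test. Fatty acid synthesis genes (12 kept, 10 below 0, median -1.53) held 1 call, Elovl3. Dgat2, which makes triglyceride, had ratios without overlap and a per-animal difference of -4.29, with 0.0 CPM in IP of hepatectomised KO replicate 4 (edgeR -2.94, unadjusted p = 0.065).

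Urea cycle genes (7 kept, all below 0, median -1.25) had 0 called and 2 at an unadjusted p under 0.05, Cps1, the entry enzyme (-1.33), and Ass1, argininosuccinate synthase (-1.27, without overlap). Amino acid breakdown genes (25 kept, 22 below 0, median -0.81) had 0 called. Gnmt, which uses S-adenosylmethionine to methylate glycine, fell in IP by 2.39 and Mat1a, which makes S-adenosylmethionine in hepatocytes, by 2.07 (adjusted p = 0.03 and 0.0028, edgeR), while their IP/input differences of -1.86 and -1.44 did not pass. Glucose metabolism genes (10 kept, all below 0, median -0.84) and fatty acid oxidation genes (21 kept, 18 below 0, median -0.83) had 0 called. Against the median of all genes kept, the medians of the urea cycle, P450 and fatty acid synthesis lists were lower under each of the 4 scalings, by 1.07 to 1.34, 0.93 to 0.97 and 1.26 to 1.43 on the log2 scale.

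Of the 10 hepatocyte marker genes, 9 are also members of the lists above or of the other lists used, and Asgr1 is in no other. Their summed IP level was 13200 to 33300 CPM in hepatectomised KO and 35300 to 51900 CPM in sham KO animals, without overlap, and their summed input level was 39100 to 47600 CPM in hepatectomised KO and 42500 to 49200 CPM in sham KO animals. All 10 had a per-animal IP/input difference below 0, and none was at 0 in any group. The summed IP level of 11 endothelial markers was 1150 to 1710 CPM in hepatectomised KO and 739 to 1220 CPM in sham KO animals, that of 11 Kupffer cell and macrophage markers 646 to 1330 CPM in hepatectomised KO and 527 to 1030 CPM in sham KO animals. That of 11 stellate cell and fibroblast markers was 849 to 1110 CPM in hepatectomised KO and 441 to 1060 CPM in sham KO animals, with overlap in all 3 lists. Of 9 lymphocyte markers 6 were at 0 in all 8 inputs. In bulk liver, fewer cells of a type and less RNA per cell cannot be told apart, and the part of cell makeup in these results was not tested.

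Of 40 lists with genes kept, 17 had a median edgeR difference above that of all genes kept. Nucleolar ribosome assembly genes (5 kept, 3 above 0, median 1.41) had 0 called. Ncl, nucleolin, rose in IP, with 2793, 2647, 5249 and 477 CPM in hepatectomised KO animals, against 1168, 229, 617 and 542 CPM in sham KO animals (log2 change 2.07, adjusted p = 0.029, edgeR). Replicates 1 to 3 were above the sham animals and replicate 4 was within their range, and the IP/input difference of 1.97 did not pass (adjusted p = 0.32). Npm1, another nucleolar protein of ribosome assembly, was also lowest in replicate 4 of the hepatectomised KO animals, with 136 CPM in replicate 4 and 1483 to 3018 CPM in the other hepatectomised KO animals. Cytosolic ribosomal protein genes (41 kept, 26 above 0, median 0.47) had 0 called, and many have near-identical pseudogene copies.

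Genes of the mitochondrial genome, whose transcripts are not made in the nucleus, had a median per-animal difference of 0.65 in KO livers (13 kept, 11 above 0) and -0.07 in flox livers, with 0 called and 7 at an unadjusted p under 0.05. mt-Nd1, a subunit of complex I, had IP levels of 28025, 25671, 38707 and 8052 CPM in hepatectomised KO animals, against 15055, 8605, 9463 and 9133 CPM in sham KO animals. Again replicate 4 lay below the other hepatectomised KO animals, and it lay below all 4 sham animals. The IP level rose (log2 change 1.17, adjusted p = 0.00069), and the IP/input difference was 0.97 (adjusted p = 0.32, edgeR; 0.83 with the animal as a block, adjusted p = 4.5e-06). With that block mt-Nd2 (0.7, adjusted p = 8.6e-11) and mt-Nd4 (0.78, adjusted p = 1.6e-11) passed too (edgeR). Without the expression filter mt-Nd1 (0.98, adjusted p = 0.00034), mt-Nd2 (0.75, adjusted p = 4.4e-05) and mt-Nd4 (0.75, adjusted p = 0.00022) passed as well (edgeR). Without hepatectomised KO replicate 4, so did mt-Nd2 (1.13, adjusted p = 0.0054) and mt-Nd4 (1.14, adjusted p = 0.01, edgeR). The per-animal ratios of mt-Nd1, mt-Nd2 and mt-Nd4 overlapped between the groups. Mitochondrial genes took 18.75%, 16.37%, 24.14% and 8.62% of the IP counts in hepatectomised KO animals, against 14.42%, 9.79%, 11.78% and 7.94% in sham KO animals, and this share was not tested for its part in the other ratios. Relative to the median of all genes kept, the list was higher by 0.86 to 1.04 under the 4 scalings.

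Genes of the m6A machinery gave few values. Of 12 writers and erasers found, Zc3h13, a writer cofactor, and the eraser Alkbh5 were kept, with per-animal differences of 0.56 and 0.49 and overlap in both. Of 13 readers 7 were kept, 4 above 0, with Ythdc1, the nuclear reader, at 2.08 and Ythdf3, a cytoplasmic reader, at -0.61, and 0 called. Gene length was not used in the choice of genes. The median per-animal difference was -0.45 in the 538 genes with the shortest exonic length (up to 2910 bases) and -0.23 in the 539 with the longest (from 8330 bases), and all 5 called genes were among the shortest. By input level it was -0.43 under 100 CPM and -0.37 over 1000 CPM.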

How the data were processed

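Per the labels' protocols, RNA was extracted with a column kit, input libraries were made with a stranded mRNA kit and IP libraries with another kit after fragmentation and pull-down. Per the submitters' processing notes, fastp and STAR were used; no version is stated. For the counter, strandedness and build, nothing is stated in the sources. The authors deposited estimated counts per gene, not normalized, with 1.33% to 8.22% of the values of a library not whole. They were rounded. Genes were named by position from RefSeq genes on GRCm38.p6, used for names only (35588 of 55421 genes, with 94.3% of counts; a shift by 1000000 bases named 474).

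edgeR 4.0.16 in R 4.3.3 was fitted over 32 libraries and 14332 genes (filterByExpr, minimum count 10, TMM, 1 coefficient per group), with its quasi-likelihood test and a threshold of 0.05 after Benjamini-Hochberg adjustment. Per-animal log2 IP/input used CPM + 1. Replicates are separate animals per the labels. Alternatives were DESeq2 1.42.0, limma 3.58.1 on per-animal ratios, other scalings, filters, pseudocounts, a block by animal and leaving out animals. The scripts were tested on simulated data whose dispersions were below the common dispersion of the main fit (3.51). That run therefore does not show how the tests perform at the spread of these data.

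Named were Mettl14 and the fibrinogen genes, up to 12 genes each way that passed with no overlap and the largest difference, filled up by smallest p among genes without overlap, and of each of 43 lists up to 4 genes of smallest p with any that passed. Predicted models were left out. A gene that this rule names is not reported here. Genes outside this rule named here are Gm8893, the genes called in IP and Sdf4. Also outside it are Mrpl51, Trio, Emilin1 and Arel1 beside the input limit, the acute phase genes Lbp, Orm2 and Saa3, and the hepatocyte marker Asgr1. The members and lists were chosen with earlier results of these data known.

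The labels pair the input and IP library of an animal. Over 350 genes of at least 300 CPM their deviations correlated at -0.1 to 0.24 (median 0.08, across genes), and 9 of 16 inputs matched their own IP library best. Intervals cover counting error only.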

Additional observations from a re-analysis of the deposited data

Results flagged for a closer look

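Single animals stood apart from the others of their group in 24 of 316 groups of 4 examined (the gap to the nearest animal over the range exceeded Dixon's 95% limit), and chance flags about 5%. In log2 IP/input, the sham KO animal that stood apart had 0.36 for Slc27a2, -3.18 for Lcn2, 6.69 for Cpb2, 0.48 for Serpina1c, 6.83 for Ces3b, 2.58 for Ehhadh, 0.1 for Plin2, 8.54 for Zfp36, -4.98 for Cdkn1a, 1.27 for Hsp90b1, 6.94 for Cdh5 and -1.13 for H1f0. The hepatectomised KO animal that stood apart had -1.69 for Proz, 0.17 for Mgst1, -2.23 for Gnmt, -1.89 for Scd1, 1.9 for Sqle, -0.33 for Lifr, 1.67 for Ythdf3, 6.94 for Col1a2, -0.37 for mt-Nd4 and 4.3 for H1f0. The input total of 10566756 counts stood apart among hepatectomised KO animals, as did the 16846 genes with at least 10 counts among the IP libraries of sham KO animals.

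The surgery change of IP/input of Sdf4, a calcium-binding protein of the Golgi, differed between KO and flox livers by -14.89 on the log2 scale (adjusted p = 0.015, edgeR). Its ratio was 0.94, 1.36, -1.53 and -0.68 in hepatectomised KO animals, against 0.32, 1.56, 3.4 and 6.19 in sham KO animals. In flox livers it was 7.07, 6.15, 7.51 and 7.31 after hepatectomy, against 0.48, 6.78, 5.23 and 0.29 after sham surgery. The inputs of the hepatectomised flox animals held 0 counts of it, so the fitted size depends on the prior count and is no bound.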

How the results depend on the processing

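Against 5 calls in IP/input, DESeq2 gave 12 among the genes kept (9 lower, 3 higher) and 1596 of all 14332 tested, RLE factors 3, no filter 15, a fit on the genes kept alone 8, upper-quartile factors 0, the replicate block 25 (18 lower, 7 higher), the omission of both replicates 4 14, and leaving out 1 animal 2 to 14. limma on per-animal ratios gave 4, or 7 with a pseudocount of 5; on plain CPM it reads a shift in composition as change. Against 42 calls in IP, a fit on the genes kept alone gave 73, upper-quartile factors 18, RLE factors 23 lower and 21 higher, the omission of both replicates 4 66, and leaving out 1 animal 27 to 74. Against 0 calls in input, DESeq2 gave 2 (2341 of all tested) and no filter 1, and leaving out 1 animal gave 0 among the genes kept and up to 4 in all. Against 1 call in the difference between genotypes, DESeq2 gave 42 (28 lower, 14 higher) and 3163 of all tested, no filter 17, the replicate block 15 (12 lower, 3 higher), upper-quartile factors 2, limma 0 or, with a pseudocount of 5, 3, the omission of both replicates 4 3, and leaving out 1 KO animal 1 to 6 (no flox animal was left out). The per-animal median difference of -0.14 was -0.28 with an input minimum of 10 CPM and -0.16 to -0.1 without 1 animal. Of the 5 genes, Serpina1e and Cyp8b1 passed under 18 of 19 alternatives, Elovl3 under 12, Gm8893 under 11 and Cyp2e1 under 10, with no change of direction. With a pseudocount of 5, the difference was -4.61 for Elovl3 and -4.3 for Cyp8b1. The cause of these changes was not tested. For single genes, 2884 values stayed on their side of the threshold, 45 passed only under the alternative, 26 passed only as reported and 2 moved in size. For IP or input alone no block could be fitted, since an animal has 1 library there.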
